A study of Mus musculus with 15 samples.

Results

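The matrix metalloproteinases (MMPs) Mmp2, Mmp9, Mmp12, Mmp13, Mmp14 and Mmp19, the cell-surface protease Adam8 and the tissue inhibitors of metalloproteinases Timp1, Timp2 and Timp3 were followed in macrophages of mouse ear skin. The 10 genes were taken by name from the 42454 entries of the deposited expression table, where each was listed once. All mice carried a GFP reporter and the inducible recombinase creERT2 at the Cx3cr1 locus (CX3CR1-creERT2/gfp) and 1 Cre-dependent tdTomato allele (R26-tdT/+), and all were given tamoxifen. The left ear was punched 3 weeks later, and CD11b+ CD64+ Lin- cells were sorted 10 days after the punch from the left (injured) and right (uninjured) ears of 3 mice. The 5 groups had 3 RNA-seq libraries each. Recruited nerve-associated macrophages of the injured ear (recNAM) were sorted as GFP+/Tomato-. Resident nerve-associated macrophages of the injured ear (injNAM) and of the uninjured ear (sNAM) were sorted as GFP+/Tomato+. Interstitial macrophages of the injured ear (injIM) and of the uninjured ear (IM) were sorted as GFP-/Tomato-. Tomato marks cells that were Cx3cr1-expressing at the time of tamoxifen and their progeny, whereas the GFP-/Tomato- gate carries no label of when a cell arrived. Groups follow the library titles, since the reporter tag in the labels goes against the titles for the injIM and sNAM libraries. The labels do not say which mouse gave which library, and the tests treated the libraries as independent.

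MMPs are zinc-dependent proteases that cut collagen, elastin and other matrix proteins and also release or inactivate cytokines and chemokines. Most are secreted as inactive precursors, and Mmp14 is anchored in the membrane, where it can activate the precursor of Mmp2. TIMPs bind the active site of MMPs and block them, and Timp2 in addition bridges Mmp14 and the Mmp2 precursor. In healing skin, macrophages are 1 of several sources of these enzymes, beside fibroblasts, keratinocytes and neutrophils.

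Values are normalized counts, which are read counts divided by 1 factor per library by the authors. Depth was 20397849 to 23794162 reads in the recNAM, injIM and IM libraries, 16889283 to 19520105 reads in injNAM and 5636251 to 18632984 reads in sNAM. The resident nerve-associated libraries were less complete. Of 8656 tested genes, 3.89% to 25.8% had no read in an sNAM library and 4.26% to 8.79% in an injNAM library, against at most 0.751% in any other library. Replicates also correlated less, with r of 0.762 to 0.772 among injNAM and 0.644 to 0.776 among sNAM libraries, against 0.934 to 0.983 elsewhere. All 9 macrophage markers examined, among them Csf1r, Adgre1 and Fcgr1, were detected in every group. All 10 genes passed the filter for testing, a mean of 100 normalized counts over the 15 libraries, and each also averaged over 100 without its highest group.

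Per kilobase of exon, Mmp19 and Timp2 were the most abundant, with 6445 and 6348 normalized counts per kb over the 15 libraries. Adam8 followed with 3491 per kb and Timp1 with 2899. Mmp9 averaged 1692 and Mmp14 1299 per kb, and Mmp13 233. Mmp2, Mmp12 and Timp3 were low, with 70.8, 64.2 and 42.6 per kb. The level of Mmp9 rested on the injIM libraries, as the plot of normalized counts by library shows.

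**Figure D1:**
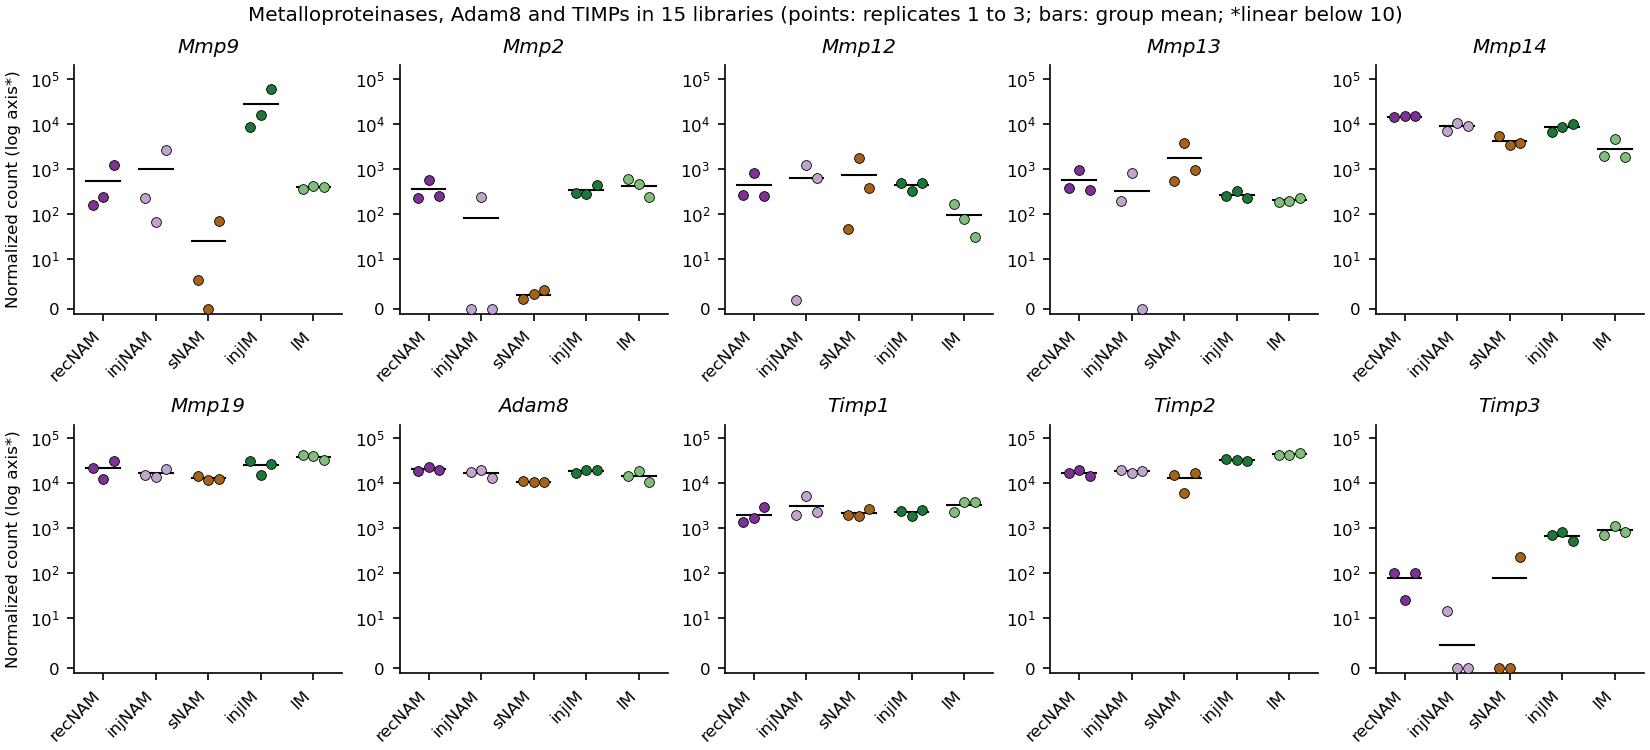
Normalized count of each gene (y axis, log scale that is linear below 10) in the 5 groups (x axis), with 1 point per library and a bar at the group mean. Mmp9 lies between 8654 and 59304 in the 3 injIM libraries and at or below 2679.6 in the others, while Timp2 lies at 30213 or above in the injIM and IM libraries and at or below 19609.8 elsewhere.

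The gelatinase Mmp9, which cleaves denatured collagen and type IV collagen (chromosome 2, 164940780 to 164955850, mm10), was the member with the largest difference between injured and uninjured skin. It measured 8654, 16010.4 and 59304 normalized counts in injIM replicates 1, 2 and 3, and 363, 423 and 402 in IM. Every injIM library stood above every IM library, but the injIM libraries themselves spanned a 6.85-fold range. Mmp9 rose in injIM by group means of 27989 ± 27367 against 396 ± 30.4 in IM (SD, n = 3 each; log2 difference 5.36, SE 0.53, limma adjusted p = 1.02e-05). The ratio of means was 70.7, and 31.1 without injIM replicate 3. DESeq2 (adjusted p = 0.00355) and limma with 1 pooled spread (0.0283) also called the rise, and edgeR did not (0.423).

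In the other groups Mmp9 stayed far below this level. It measured 160.4, 232 and 1219 in recNAM, 229, 66.7 and 2679.6 in injNAM and 5.78, 0 and 70.3 in sNAM. In sNAM these values came from 6, 0 and 38 reads, and a library with no read allows up to 3 reads, or 8.73 normalized counts in sNAM replicate 2. By group means injNAM came next after injIM, then recNAM, IM and sNAM, and the values of injNAM, recNAM and IM overlapped. Mmp9 fell in recNAM relative to injIM (537 ± 592 against 27989 ± 27367, log2 difference -5.39, SE 0.65, limma adjusted p = 9.96e-05). The ratio of means was 52.1-fold lower in recNAM, 23.0-fold lower without injIM replicate 3 and 143-fold lower without recNAM replicate 3. DESeq2 (adjusted p = 0.00469) and limma with 1 pooled spread (0.0144) also called this fall, and edgeR did not (0.295). In injNAM relative to injIM the values did not overlap either, but the difference did not pass in limma with group weights (log2 difference -5.25, SE 1.28, adjusted p = 0.0767) or in edgeR (adjusted p = 0.114). It was called by DESeq2 (adjusted p = 0.00849), by limma with 1 pooled spread (0.0107) and with group weights when injIM replicate 1 or injIM replicate 3 was left out.

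Mmp9 is also a granule gene of neutrophils. The 12 neutrophil markers examined, a list without Mmp9, summed to 1690, 1931 and 1392 in injIM and 1602, 1472 and 1217 in IM. Csf3r, the receptor for granulocyte colony-stimulating factor, made up most of these sums. Ly6g, Ltf and Elane had no read in injIM or in IM, and S100a9 measured at most 10.7 in injIM. S100a8 was higher in injIM without overlap, with 59.96, 70.41 and 51.63 against 20.27, 15.34 and 7.78 in IM. Of the 12 markers, 9 were detected in injIM and 6 in IM. Cxcr2, Camp and Ngp had reads in injIM alone of these groups, at 4.928 or below. The sum of 8 fibroblast markers was 6971, 4666 and 17534 in injIM, in the order of the replicates. Mast cell markers summed to 3491.5, 3538 and 3723 in injIM, and to 9712, 7194 and 8393 in IM. The part of neutrophil, fibroblast or mast cell RNA in the differences between injIM and IM was not tested. The tested genes most like Mmp9 across the 15 libraries were the sodium-proton exchanger Slc9b2 (Pearson r = 0.881), 1110008P14Rik (0.838) and the lysosomal protease Ctsl (0.825), values that describe 15 libraries of 3 mice. Slc9b2 measured 193, 369 and 1203 in injIM, in the order of the replicates, and 48.1, 27.8 and 13.8 in IM.

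The second gelatinase, Mmp2 (chromosome 8, 92827291 to 92853420), did not follow Mmp9. It measured 231, 576 and 246 in recNAM, 0, 239 and 0 in injNAM, 1.93, 2.91 and 3.70 in sNAM, 292, 273 and 437 in injIM and 591, 457 and 232 in IM. The sNAM values were 2, 1 and 2 reads, so Mmp2 was at the edge of detection there, whereas all libraries of recNAM, injIM and IM held over 200 normalized counts. The sNAM and IM values did not overlap, and the difference did not pass in limma with group weights (2.85 ± 0.889 against 427 ± 182, log2 difference -2.29, SE 0.82, adjusted p = 0.189) or in edgeR (adjusted p = 0.0855). DESeq2 (adjusted p = 0.000352) and limma with 1 pooled spread (0.0122) called it lower in sNAM. Fewer cells of a type and less RNA per cell cannot be told apart in these bulk libraries.

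Mmp12, the macrophage elastase (chromosome 9, 7344381 to 7369499), and the collagenase Mmp13 (chromosome 9, 7272514 to 7283331) lie near each other in the MMP gene cluster. Mmp12 measured 484, 329 and 497 in injIM, and 169, 76.7 and 31.1 in IM. Every injIM library exceeded every IM library. Mmp12 rose in injIM (437 ± 93.0 against 92.2 ± 70.2, log2 difference 1.53, SE 0.33, limma adjusted p = 0.00528). The ratio of means was 4.73, and 8.10 without IM replicate 1. Without IM replicate 3 the gene missed the threshold (adjusted p = 0.051). It was not called by edgeR, DESeq2 or limma with 1 pooled spread. The genes most like Mmp12 over the 15 libraries were Brat1 (r = 0.891), Ciao2a (0.865) and Map3k3 (0.855).

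Mmp13 measured 249, 320.5 and 230.1 in injIM, and 185, 196.5 and 226 in IM. Each injIM library was above each IM library, by little, and the gene was not called (limma adjusted p = 0.631). Its highest group mean lay in sNAM, and the libraries of the 3 nerve-associated groups overlapped. It measured 371, 966 and 344 in recNAM, 194.5, 794 and 0 in injNAM and 542, 3781 and 925 in sNAM. All sNAM libraries exceeded all IM libraries, but the difference did not pass (1749.6 ± 1769.9 against 202 ± 20.9, a ratio of 8.65, limma adjusted p = 0.198).

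Within the nerve-associated groups, Mmp12 and Mmp13 peaked in the same libraries. Mmp12 measured 263, 823 and 246 in recNAM, 1.76, 1231.5 and 625 in injNAM and 47.2, 1761 and 383 in sNAM. The highest library of each of these 3 groups, replicate 2 in every case, was the highest for both genes. In injIM and IM the highest library for Mmp12 was not the highest for Mmp13. The library sNAM replicate 2 was the shallowest, and its mast cell markers summed to 20095 normalized counts, against 2.89 and 1822.5 in sNAM replicates 1 and 3. In injNAM and recNAM, replicate 2 did not have the highest mast cell sum. The part of these in the values of Mmp12 and Mmp13 was not tested.

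The 100 bases before a RefSeq start (GRCm38.p6, plus strand) are shown for Mmp12 and Mmp13. They were the 2 of 7 members with a window that held the AP-1 motif TGANTCA, set in capitals. Whether the motif relates to the shared peaks of both genes was not tested. AP-1 is a dimer of Fos and Jun family proteins and a known regulator of MMP promoters. For Mmp12 the downstream of its 2 starts is shown (chr9:7347274-7347373), and for Mmp13 its only start (chr9:7272414-7272513).
Mmp12: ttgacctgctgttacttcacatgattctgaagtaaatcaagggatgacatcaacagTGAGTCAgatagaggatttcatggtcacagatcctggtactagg
Mmp13: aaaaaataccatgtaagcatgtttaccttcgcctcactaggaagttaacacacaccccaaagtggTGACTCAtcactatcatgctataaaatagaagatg
The match began 44 bases before the start in Mmp12 and 35 bases before it in Mmp13. The window of the upstream Mmp12 start held none. RefSeq windows of 250 bases before to 50 bases after a start were matched for 7 members, and no match was found in those of Mmp14, Adam8, Timp1, Timp2 and Timp3. Of 32851 such windows in the table, 7.81% held the motif, which reads the same on both strands. The core promoter motif TATAAA, searched on both strands and present in 13.6% of windows, began 16 bases before the start in Mmp13 and 4 bases after the downstream start in Mmp12. These matches describe the letters of the windows only.

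**Figure D2:**
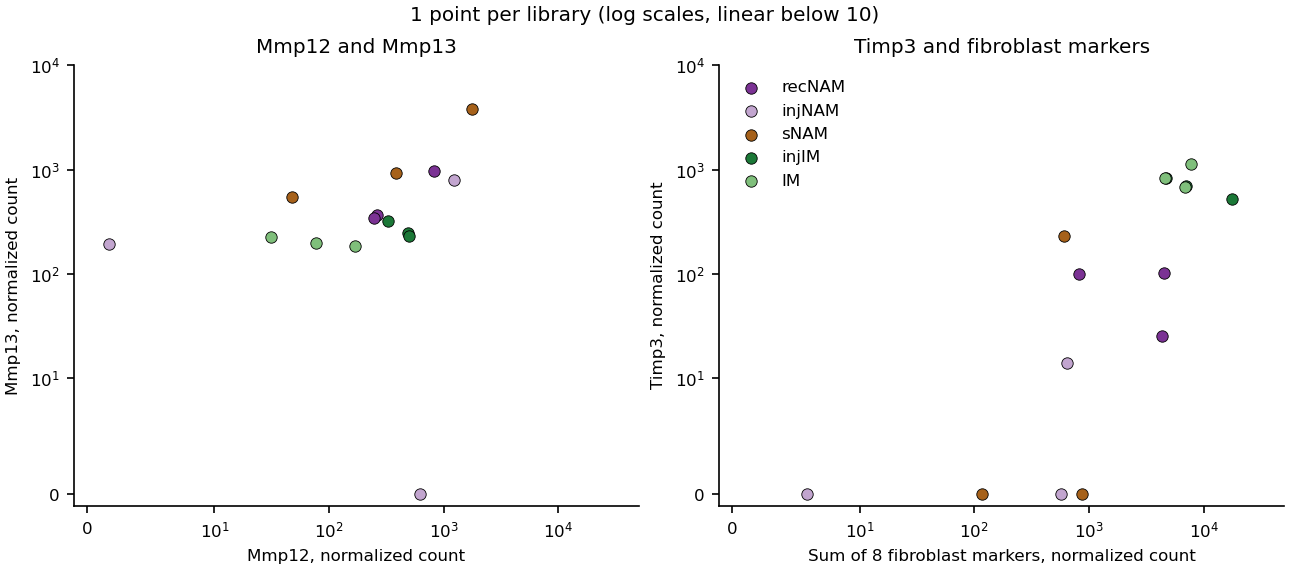
Left, Mmp12 (x axis) against Mmp13 (y axis), and right, the sum of 8 fibroblast markers (x axis) against Timp3 (y axis), in normalized counts with 1 point per library on log scales that are linear below 10. The sNAM library at Mmp12 1761 and Mmp13 3781 lies at the upper right of the left panel, and all injIM and IM libraries lie at Timp3 of 522 or more in the right panel, where the nerve-associated libraries are at or below 233.

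Mmp14, the membrane-bound MMP that activates the Mmp2 precursor (chromosome 14, 54431612 to 54445364), was higher in cells of injured than of uninjured skin in both populations by group means. It measured 6713, 8658 and 9826 in injIM, and 1964, 4603 and 1867 in IM, with no overlap. Mmp14 rose in injIM (8399 ± 1573 against 2812 ± 1552, log2 difference 1.65, SE 0.23, limma adjusted p = 0.000101). DESeq2 (adjusted p = 0.0109) and limma with 1 pooled spread (0.0374) also called the rise, and edgeR did not (0.196). Mmp14 measured 6906, 10569.9 and 8979 in injNAM, and 5418, 3420 and 3739 in sNAM. These did not overlap either, but the difference did not pass (8818 ± 1837 against 4193 ± 1073, log2 difference 1.06, SE 0.87, limma adjusted p = 0.9).

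The recruited cells held the highest Mmp14 and the tightest spread, with 14000, 14589 and 14915 in recNAM. Each recNAM library exceeded every other library of the study. Relative to injIM the difference missed the threshold (14501 ± 463 against 8399 ± 1573, log2 difference 0.80, SE 0.28, limma adjusted p = 0.0936), although it was called without injIM replicate 3, and it also missed it relative to injNAM (log2 difference 0.73, SE 0.57, adjusted p = 0.915). The genes most like Mmp14 over the 15 libraries were Tgm2, which crosslinks matrix proteins (r = 0.951), the secreted phosphoprotein Spp1 (0.917) and the antioxidant enzyme Prdx5 (0.906).

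Mmp19, a secreted MMP that cleaves basement membrane proteins (chromosome 10, 128790910 to 128800824), was the most abundant MMP in all groups except injIM by mean level per kb. There Mmp9 averaged 7909 ± 7733 and Mmp19 7019 ± 2369 per kb, a difference within the spread. In normalized counts Mmp19 measured 21888.5, 12559 and 31684 in recNAM, 15371, 13609.5 and 20687 in injNAM, 14428, 11423 and 12286 in sNAM, 31717, 15493 and 27184 in injIM and 42086, 39019 and 32096 in IM. The IM libraries stood above all others, although injIM replicate 1 and recNAM replicate 3 came close. Mmp19 was not called in injIM relative to IM (24798 ± 8371 against 37734 ± 5118, log2 difference -0.66, SE 0.22, limma adjusted p = 0.0686) or in sNAM relative to IM (12712 ± 1547 against 37734 ± 5118, log2 difference -1.56, SE 0.68, adjusted p = 0.29). Without injIM replicate 1 the difference between injIM and IM was called. The difference between sNAM and IM was called by edgeR (adjusted p = 0.0141), DESeq2 (0.00077) and limma with 1 pooled spread (0.0065).

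Adam8, a leukocyte protease that sheds surface proteins (chromosome 7, 139978932 to 139992562), was highest by group mean in recNAM and lowest in sNAM. It ranged from 18908 to 23001 in recNAM, 12923 to 19489 in injNAM, 10499.9 to 11392 in sNAM, 16808 to 19945 in injIM and 10400.4 to 18441 in IM. All injNAM libraries exceeded all sNAM libraries, and no comparison called the gene, the lowest adjusted p being 0.112 for injIM relative to IM, where it was called without IM replicate 2.

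Among the inhibitors, Timp2 (chromosome 11, 118301069 to 118355740) separated interstitial from nerve-associated cells. It measured 16445, 19609.8 and 14451 in recNAM, 19164, 16931 and 18787 in injNAM, and 15149, 5906 and 17139 in sNAM. The interstitial libraries were higher, with 33815, 33088 and 30213 in injIM and 42172, 41459.7 and 46653 in IM. No nerve-associated library reached any interstitial library. Timp2 fell in sNAM relative to IM (12731 ± 5994 against 43428 ± 2816, log2 difference -1.90, SE 0.35, limma adjusted p = 0.0131). The call was lost without sNAM replicate 1 (adjusted p = 0.146) or sNAM replicate 3 (0.0811). Those fits called 0 and 9 of all genes, in that order, against 91 with all libraries. Timp2 also fell in recNAM relative to injIM (16835 ± 2601 against 32372 ± 1904, log2 difference -0.95, SE 0.13, limma adjusted p = 0.000181), and that call held without any 1 library of these groups. The call was lost in edgeR (adjusted p = 0.441), DESeq2 (0.262) and limma with 1 pooled spread (0.285). In injNAM relative to injIM Timp2 did not pass (18294 ± 1195 against 32372 ± 1904, log2 difference -0.82, SE 0.26, limma adjusted p = 0.193).

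Timp2 was also lower in interstitial cells of the injured ear than of the uninjured ear (32372 ± 1904 in injIM against 43428 ± 2816 in IM, log2 difference -0.42, SE 0.11, limma adjusted p = 0.0201). That difference missed the threshold without IM replicate 1 (adjusted p = 0.0555), IM replicate 3 (0.12) or injIM replicate 1 (0.0623), and in a fit of the IM, injIM and recNAM libraries alone (0.0619). Nor was it called by edgeR, DESeq2 or limma with 1 pooled spread. The genes most like Timp2 over the 15 libraries were Gas6, a ligand of receptors for dying cells (r = 0.955), the coagulation factor subunit F13a1 (0.95) and Mtmr10 (0.949).

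Timp3, the matrix-bound inhibitor that also blocks ADAM proteases (chromosome 10, 86300372 to 86349506), divided the same populations at a lower level. It measured 100.4, 25.7 and 103 in recNAM, 14.1, 0 and 0 in injNAM and 0, 0 and 233 in sNAM, against 699.8, 832 and 522 in injIM and 686, 1141 and 840 in IM. The zeros allow up to 2.94 and 2.57 normalized counts in injNAM replicates 2 and 3 and up to 2.89 and 8.73 in sNAM replicates 1 and 2. Timp3 fell in recNAM relative to injIM (76.5 ± 44.0 against 685 ± 155, log2 difference -2.17, SE 0.26, limma adjusted p = 4.44e-05). That fall was not called by edgeR, DESeq2 or limma with 1 pooled spread (adjusted p = 0.0637). Timp3 also fell in injNAM relative to injIM (4.69 ± 8.13 against 685 ± 155, log2 difference -2.89, SE 0.51, limma adjusted p = 0.0164), a call lost without injNAM replicate 1 (0.0955) or injNAM replicate 3 (0.105). Those 2 fits called 6 and 2 of all genes, in that order, against 42 with all libraries. The injNAM call was also lost in edgeR (adjusted p = 0.128) and kept in DESeq2 (0.00341) and with 1 pooled spread (0.00715). Without injNAM replicate 1 no read was left in that group. For sNAM relative to IM the difference missed the threshold (log2 difference -2.70, SE 0.67, adjusted p = 0.0528), and it was called without IM replicate 1, with TMM scaling (adjusted p = 0.0427), with 1 pooled spread (0.00278) and without the filter. The genes most like it were Mcoln3 (r = 0.951), Cnrip1 (0.924) and A4galt (0.922).

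Fibroblasts express Timp2, Timp3 and Mmp2, and the sum of the fibroblast markers was lower in nerve-associated than in interstitial libraries. All 8 markers were detected in recNAM, injIM and IM. Pdgfra had no read in injNAM and Lum none in sNAM. Summed normalized counts were 825, 4343 and 4488 in recNAM, 642, 5.88 and 576 in injNAM, 117, 862 and 611 in sNAM, 6971, 4666 and 17534 in injIM and 6951, 7794 and 4632 in IM. The sums of all nerve-associated libraries lay below the lowest interstitial sum, although recNAM replicates 2 and 3 came close to it. Timp3 measured 25.7 and 103 in these recNAM libraries, and 840 in IM replicate 3, which had the lowest interstitial sum. Mmp2 overlapped between recNAM and both interstitial groups. Of the single markers, Pdgfrb overlapped in the same way, with 101, 144 and 99.7 in recNAM, whereas Col1a2 stayed lower in recNAM. The part of fibroblast RNA in the differences of Timp2, Timp3 and Mmp2 was not tested.

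Timp1, a secreted inhibitor that binds the Mmp9 precursor (chromosome X, 20870166 to 20874735), differed little. It measured 1397, 1703 and 2882 in recNAM, 1929, 5254 and 2315 in injNAM, 1933, 1848 and 2664 in sNAM, 2379, 1864 and 2509 in injIM and 2241, 3823 and 3868 in IM. Each group overlapped with every other, and the lowest adjusted p was 0.145, for injIM relative to IM (2251 ± 341 against 3311 ± 926), where it was called without IM replicate 1. Timp1 lies within the span of Syn1, and Timp3 within that of Syn3, on the opposite strand. Among further overlaps, Mmp19 meets Tmem198b on the opposite strand (mean 357 normalized counts), and Timp2 spans Cep295nl on the same strand (83.4). Whether counting used strand is not given in the sources used here, and Syn1 and Syn3 averaged 58.2 and 7.55 normalized counts.

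**Figure D3:**
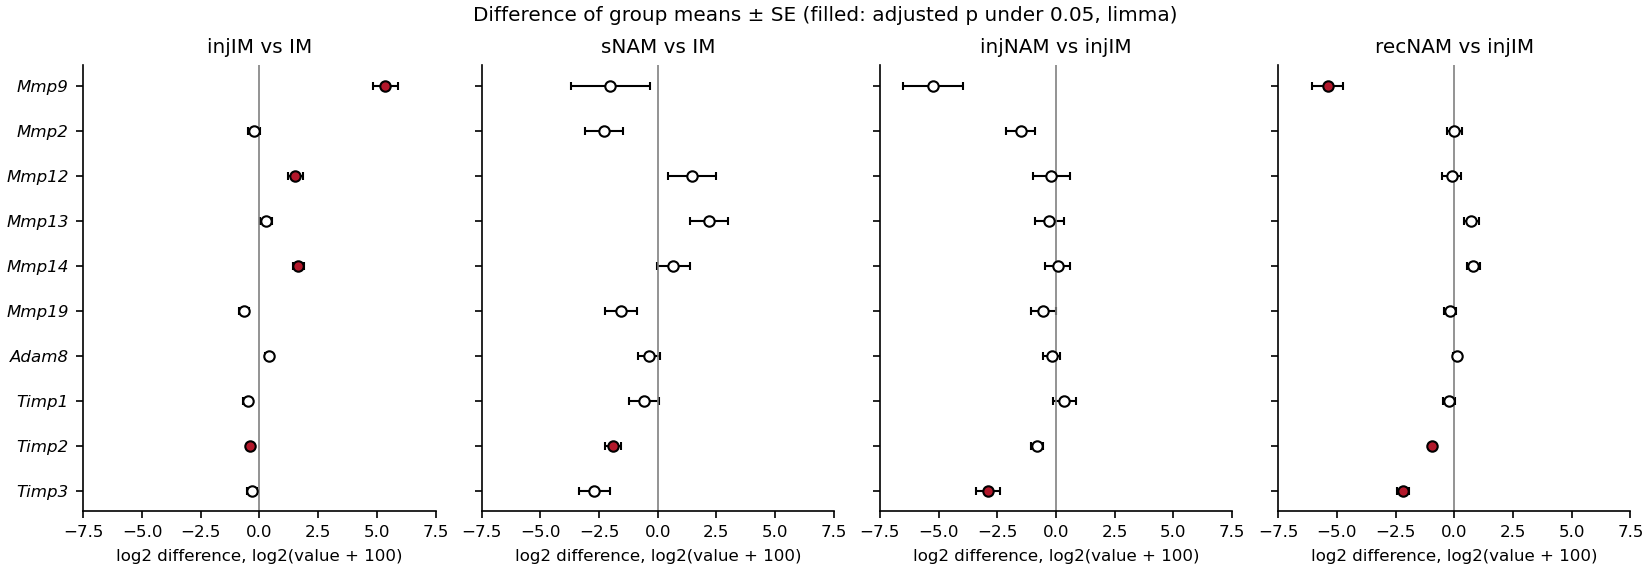
Log2 difference of group means on the log2(value + 100) scale (x axis) for each gene (y axis) in 4 comparisons, with bars of 1 SE and filled points where the adjusted p of limma was under 0.05. Filled points stand to the right of 0 for Mmp9, Mmp12 and Mmp14 in injIM against IM, and to the left of 0 for the other filled points.

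Counted over the members, injIM against IM gave 4 calls of 10, with 3 higher (Mmp9, Mmp12, Mmp14) and 1 lower (Timp2). Of all tested genes, 8.18% were called in this comparison (4.15% higher, 4.03% lower). The values of 6 members did not overlap between injIM and IM, against 24.9% of all genes, and the median log2 difference was 0.02 for members and 0.03 for all genes. Without IM replicate 3 only Mmp9 and Mmp14 were called. With DESeq2, with 1 pooled spread and without the filter on low values these 2 genes were called as well, and edgeR's quasi-likelihood test on recovered reads called none of the members. Of all genes, DESeq2 called 0.508%, the pooled spread 0.208% and edgeR 0.0219%. Without IM replicate 3 the fit called 399 genes, and without the filter 315, against 708 in the main fit.

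The comparison of recNAM with injIM called 3 members of 10, all lower (Mmp9, Timp2, Timp3), where 7.53% of all genes were called and 4.34% were lower. Values of 5 members did not overlap, against 23.9% of all genes, and Mmp13 and Mmp14 were the higher members among them. DESeq2 and the pooled spread called Mmp9 alone among the members, with 1.44% and 0.254% of all genes called, and edgeR called none, with 0.0731%. The comparison of injNAM with injIM called 1 member of 10, Timp3, with 0.485% of all genes called and 0.243% lower. DESeq2 and the pooled spread called Mmp9 as well, with 8.95% and 0.797% of all genes called, and edgeR called no member, with 0.234%. Here 4 members did not overlap, against 21% of all genes. These 2 comparisons share the injIM libraries with each other and with the comparison of injIM with IM.

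The comparison of sNAM with IM called 1 member of 10, Timp2, where 1.05% of all genes were called and 0.508% were lower. The calls over all genes were 47 higher and 44 lower, and 49 and 78 with TMM scaling. Values of 6 members did not overlap, against 27.9% of all genes. The median log2 difference was -1.07 for members and -0.26 for all genes. With a pseudocount of 10 no member and no gene of the table was called. DESeq2 called Mmp2, Mmp9, Mmp19 and Timp2 lower, with 14.6% of all genes called, the pooled spread Mmp2, Mmp19, Timp2 and Timp3, with 8.4%, and edgeR Mmp19 and Timp2, with 2.83%. Dendritic cell markers summed to 50744, 23815 and 30712 in sNAM and 1740, 1241 and 1409 in IM. Ccr7 alone measured 41050, 17585 and 21785 in sNAM and took the largest part there. Xcr1 of the same list was lower in sNAM, with 171.5, 0 and 125.8 against 516, 289 and 226 in IM. T and NK cell markers, of which Il7r took the largest part and Trac had no read in either group, summed to 12051, 7892 and 11932 in sNAM and 1371.5, 1637 and 1095 in IM. Cd3g measured 1025, 0 and 2829 in sNAM, against 14.7 to 26.3 in IM. The part of these cells in the differences was not tested.

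No member was called by limma in injNAM against sNAM or in recNAM against injNAM, where 0% of all genes were called. In each, 1 member of 10 had an unadjusted limma p under 0.05, against 586 and 619 of all 8656 genes, in that order. In injNAM against sNAM this was Mmp13 (329.6 ± 414 against 1749.6 ± 1769.9, log2 difference -2.20, SE 0.98, adjusted p = 0.718), followed by Timp2 (18294 ± 1195 against 12731 ± 5994, log2 difference 0.66, SE 0.42, adjusted p = 0.856). In recNAM against injNAM it was Mmp2 (351 ± 195 against 79.8 ± 138, log2 difference 1.5, SE 0.66, adjusted p = 0.625), followed by Mmp13 (560.2 ± 352 against 329.6 ± 414, log2 difference 1.03, SE 0.64, adjusted p = 0.836). edgeR also called no member in either comparison, and DESeq2 called Mmp2, Mmp9 and Mmp14 in injNAM against sNAM and none in recNAM against injNAM. Of all genes, edgeR called 0.965% in injNAM against sNAM and 0% in recNAM against injNAM, and DESeq2 called 13.5% and 6.58%, in that order. Values of 2 members did not overlap in each, against 12% of all genes in injNAM against sNAM and 13.7% in recNAM against injNAM.

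Whether the response to injury differed between resident nerve-associated and interstitial cells was tested as an interaction. No member passed in limma, edgeR or DESeq2, with 0% of all genes called by limma, 0.227% by edgeR and 6.17% by DESeq2. Of the 10 members, 2 had an unadjusted limma p under 0.05, against 444 of all 8656 genes. For Timp2 the log2 difference was 0.66 in injNAM against sNAM and -0.42 in injIM against IM (interaction 1.08, SE 0.44, adjusted p = 0.873). For Mmp13 it was -2.20 and 0.27 (interaction -2.47, SE 1.01, adjusted p = 0.876). For Mmp9 it was 2.13 and 5.36 (interaction -3.22, limma adjusted p = 0.974). A different response of Mmp9 in the resident nerve-associated cells was not detected with this spread. The size of the gap depended on the scale, and Mmp9 in sNAM averaged 25.4 normalized counts, below the pseudocount of 100. The Mmp9 interaction was -1.66 with a pseudocount of 10, -0.8 in edgeR and -0.86 in DESeq2. Ratios of means were 39.1 in injNAM against sNAM and 70.7 in injIM against IM.

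The make-up of the transcripts was compared within each library, where the library factor cancels. The summed level of Timp1, Timp2 and Timp3 per kb was divided by that of the 6 MMPs. The ratio was 0.657, 1.04 and 0.578 in recNAM, 1.26, 1.66 and 0.905 in injNAM, 1.17, 0.658 and 1.64 in sNAM, 0.894, 1.01 and 0.403 in injIM and 1.07, 1.241 and 1.70 in IM. All injIM and recNAM libraries lay below all IM libraries, whereas injNAM and sNAM overlapped with IM. The overlap of injNAM depended on the length scaling. Without it the ratio was 0.930, 0.837 and 0.640 in injNAM, below all IM libraries (0.994, 1.037 and 1.474). Of the 9 genes, Mmp9 made up 10.1%, 21.2% and 45.25% in the injIM libraries, against 0.394% to 0.439% in the IM libraries. Mmp14 made up 13.2% to 17.9% in recNAM, 9.09% to 10.8% in injNAM and 5.25% to 8.07% in sNAM. Its share was 4.45% to 6.82% in injIM and 1.20% to 2.84% in IM. These shares are a description of chosen genes and were not tested.

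**Figure D4:**
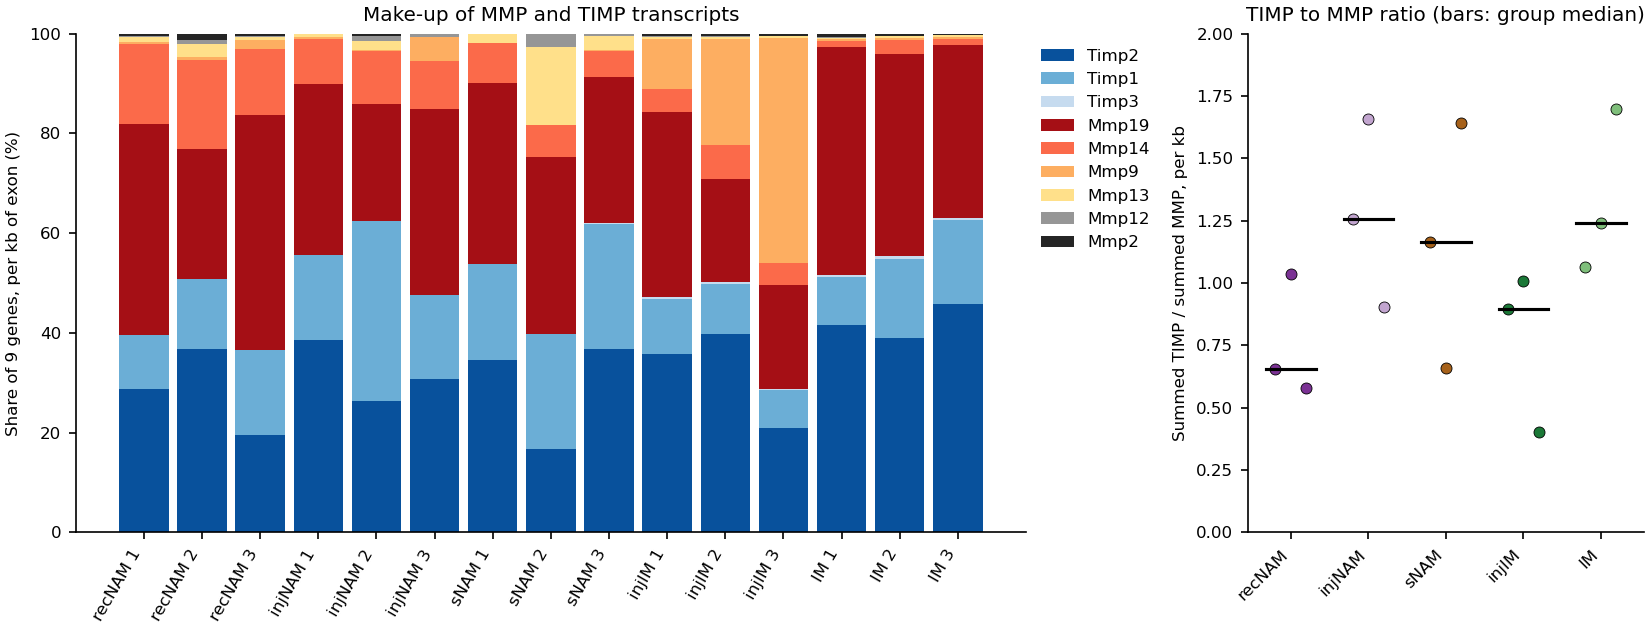
Left, share of each gene (y axis, percent of the 9 genes per kb of exon) in each library (x axis), and right, ratio of summed TIMP to summed MMP level per kb with a bar at the group median. Mmp9 fills 45.25% of injIM replicate 3, Mmp14 is widest in recNAM, and the ratio lies at 1.04 or below in recNAM and injIM and at 1.07 or above in IM.

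Other genes of matrix turnover were read from lists. For comparison with the counts of every list, 359 of all 8656 genes rose and 349 fell in injIM relative to IM. In recNAM relative to injIM, 276 of all genes rose and 376 fell. Of 18 further Mmp and Timp genes, 17 averaged under 100 normalized counts and 1 was tested. It was Mmp25, a membrane-anchored MMP of leukocytes, which rose in recNAM relative to injIM (558 ± 188 against 77.7 ± 42.6, log2 difference 1.87, SE 0.37, limma adjusted p = 0.00327). Of 11 tested ADAM and ADAMTS genes, 2 fell in injIM relative to IM. They were the aggrecan-cleaving Adamts4 (201 ± 68.7 against 779 ± 326, adjusted p = 0.0016) and Adam33 (98.9 ± 29.4 against 304 ± 91.3, adjusted p = 0.00846). Adamts4 was also lower in recNAM than in injIM (29.1 ± 43.2 against 201 ± 68.7, adjusted p = 0.0279), the only call of 11 there.

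The plasminogen system, whose protease plasmin can activate MMP precursors, had 7 tested genes. The urokinase receptor Plaur fell in injIM relative to IM (15094 ± 1561 against 22878 ± 1802.5, limma adjusted p = 0.00193), and no other gene of the list passed. In recNAM relative to injIM, urokinase itself, Plau (161 ± 126.5 against 744 ± 381.5, adjusted p = 0.0116), and Anxa2, which binds plasminogen and its activator (17930.3 ± 3954 against 27924 ± 2997, adjusted p = 0.00587), fell.

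Of 7 tested genes of MMP activation, binding and clearance, 3 rose in injIM relative to IM and none fell. The heparan sulfate carrier Sdc1 measured 4081 ± 559 against 671 ± 322 (log2 difference 2.51, limma adjusted p = 1.35e-06), the secreted glycoprotein Thbs1 87346 ± 7666 against 23429 ± 24454 (adjusted p = 0.00814) and the integrin subunit Itgav 4003 ± 794.5 against 1754.5 ± 343 (adjusted p = 0.000204). In recNAM relative to injIM, Furin, the protease that processes the Mmp14 precursor, fell (8959 ± 1182 against 15026 ± 2825, adjusted p = 0.00579). Lrp1, a receptor that clears MMPs, rose (16336.5 ± 3735 against 11170.3 ± 1282, adjusted p = 0.0476).

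Of 14 tested AP-1 and NF-kappaB factors, 3 fell in injIM relative to IM, Junb, Atf3 and Nfkb1 (log2 differences -0.63, -0.85 and -0.67, limma adjusted p from 0.00167 to 0.00506), and none rose. In recNAM relative to injIM 2 rose, Rel and Fosl2 (log2 differences 0.73 and 0.65), and 4 fell, Fosb, Jun, Atf3 and Fosl1 (log2 differences -1.19, -1.08, -1 and -0.83, adjusted p from 0.00026 to 0.0223). Of 9 tested matrix substrates, Spp1 rose in injIM relative to IM (9149 ± 2563 against 1156 ± 1382, log2 difference 3.42, adjusted p = 0.000946) and Col6a1 fell in recNAM relative to injIM (164 ± 197.5 against 479.6 ± 234, adjusted p = 0.0482). No gene of these lists was called in the other comparisons.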

How the data were processed

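RNA from sorted macrophages (250 pg per library, 13 PCR cycles) was sequenced in 15 libraries. The submitters' processing notes name the mm10 genome and, as tools, STAR 2.7.2b, DESeq2 1.24.0, R 3.6.1, cutadapt and bcl2fastq 2.18. Which counter, annotation and strand setting were used is not stated there. The signal deposited by the authors is a read count scaled by a library-wide factor, and 100% of values came out as whole reads within a tolerance of 0.01 read.

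Genes with a mean of 100 or more over the 15 libraries were tested with limma 3.58.1 on log2(value + 100), with 1 mean and 1 weight per group, a robust trend and Benjamini-Hochberg adjustment over 8656 genes (adjusted p under 0.05). Fold differences on this scale understate the change of low genes. The weights ranged from 0.175 in sNAM to 3.43 in IM. The 10 genes, the lists, the markers and the settings of this fit were chosen with earlier results of these data known, so neither the counts nor the lists are independent evidence. No more than 3 mice gave the libraries, and p-values measure the spread between libraries.

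Alternatives were edgeR 4.0.16 and DESeq2 1.42.0 on recovered reads, 1 pooled spread, a pseudocount of 10, no filter, TMM scaling, the replicate number as a block and each library left out. Members were named with log2 difference, SE and adjusted p where called, or the 2 with the smallest p where none was, and further members were added after their values were seen. List genes were named where called, up to 4 per list and comparison, with Rel and Fosl2 added after their values were seen. Levels per kb used the union of exons of GENCODE M21 (GRCm38). Limits for libraries without a read cover counting error only.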

Additional observations from a re-analysis of the deposited data

How the results depend on the processing

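Of 214 recomputations of 15 pairs of a member and a comparison, 186 kept the call or stayed uncalled and 28 lost the call, 8 of these with 1 library left out, and none changed direction. The 186 include pairs of injNAM against sNAM, recNAM against injNAM and the interaction, which were never called and could not lose a call. In edgeR every called pair lost its call except Timp2 in sNAM against IM. In injIM against IM, where 4 members were called, edgeR called 0, and DESeq2, 1 pooled spread and no filter called 2 each. Leaving out 1 library gave 2 to 5. In sNAM against IM, where 1 was called, edgeR, no filter and TMM scaling called 2 each, DESeq2 and the pooled spread 4 each and a pseudocount of 10 called 0, and leaving out 1 library gave 0 to 2. In injNAM against sNAM, with 0 called, DESeq2 called 3, and leaving out 1 library gave 0. In injNAM against injIM, where Timp3 was called, edgeR called 0, DESeq2 and the pooled spread 2 each, and leaving out 1 library gave 0 to 2. In recNAM against injIM, where 3 were called, edgeR called 0, DESeq2 and the pooled spread 1 each, and leaving out 1 library gave 3 to 4. Calls over all genes moved in these fits too. Without the filter 315 genes were called in injIM against IM and 120 in sNAM against IM. In injNAM against injIM it was 102, and in recNAM against injIM 362. Leaving out 1 library gave 399 to 827, 0 to 108, 2 to 75 and 272 to 898 genes in these 4 comparisons, in that order. With all libraries it was 708, 91, 42 and 652. The causes were not tested.

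Replicates with the same number deviated together with r over 0.1 in 9 of 30 pairs of groups (-0.021 to 0.388), although 14 of 15 libraries correlated best with their own number, a hint from the data and not from the design. With the replicate block, members called numbered 6 in injIM against IM (Mmp19 and Adam8 added), 2 in injNAM against injIM (Mmp9 added, adjusted p = 0.00998) and 4 in recNAM against injIM (Mmp14 added, adjusted p = 0.0103). Over all genes the block called 928, 70 and 1211 genes in these comparisons, against 708, 42 and 652 without it.

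Counts over all genes moved more. With limma, edgeR, DESeq2 and the pooled spread, in that order, 708, 3, 75 and 18 genes were called in injIM against IM, 91, 387, 1956 and 727 in sNAM against IM, 0, 132, 1876 and 363 in injNAM against sNAM, 42, 32, 1321 and 69 in injNAM against injIM, 652, 10, 225 and 22 in recNAM against injIM, 0, 0, 1031 and 2 in recNAM against injNAM and 0, 31, 854 and 4 for the interaction. Without length scaling the median ratio of TIMP to MMP level was 0.837 in injNAM, against 1.26 per kb, and all injNAM libraries then lay below all IM libraries. Leaving out 1 library gave medians per kb of 0.618 to 0.847 in recNAM, 1.08 to 1.46 in injNAM, 0.912 to 1.40 in sNAM, 0.649 to 0.951 in injIM and 1.15 to 1.47 in IM. The fit of the IM, injIM and recNAM libraries alone was chosen after seeing the data.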

Other observations

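Further MMP transcripts were high in single nerve-associated libraries. The collagenase Mmp8 measured 519 normalized counts and the stromelysin Mmp10 268 in injNAM replicate 2, against at most 81.7 for Mmp8 and 3.24 for Mmp10 in any other library. The same library held the highest Timp1 of the study, 5254. Mmp25 measured 594.9, 354 and 724 in recNAM, 639.9, 992 and 1.71 in injNAM and 2954, 0 and 1432 in sNAM, against 40.2 to 124 in injIM and 83.6 to 175 in IM. These genes were picked out after their values were seen, and no cause was tested.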
